A study of Mus musculus with 43 samples.

Results

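The genes described here carry insulin, insulin-like growth factor (IGF) and leptin signals in endothelial cells (EC) of the mouse brain. They are 9 of the 54532 genes in the count table, chosen by symbol: the receptors Insr, Igf1r, Igf2r and Lepr, the receptor substrates Irs1 and Irs2, the inhibitors Grb10 and Socs3, and the secreted binding protein Igfbp7. The set was built around Insr and Lepr, which the study named when it contrasted wild-derived with long-inbred mice in these same libraries, so the levels by origin and by strain chose the genes and are given as descriptions with no test. All 9 passed the filter on low counts, 0.5 CPM or more in 1 or more of the libraries, where CPM is a gene's counts scaled to a common library total, and no filter was set on a group.

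The samples are 43 RNA-seq libraries of EC from dissected cortex or hippocampus of mice at 2 months of age. The sort kept cells that were CD31+ and lacked CD45 and CD11b, a gate that removes immune cells. The wild-derived strains were CAST/EiJ (6 libraries) and WSB/EiJ (6), and the long-inbred strains were 129S1/SvImJ (9), A/J (5), C57BL/6J (6), DBA/2J (5) and NOD/ShiLtJ (6), the last a strain in which autoimmune diabetes arises. Female mice gave 16 libraries and male mice 27, cortex 21 and hippocampus 22. The labels name no transgene and no treatment, and each title has a word, high or low, left undefined in the sources used here. Of the 40 combinations of strain, sex, region and title word, 38 had 1 library. The mouse behind each library is not given, so libraries were treated as independent and p-values measure the spread between libraries.

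Insulin and IGF-1 bind related receptor tyrosine kinases, Insr and Igf1r, which phosphorylate the docking proteins Irs1 and Irs2 and so engage PI3-kinase, AKT and the FOXO transcription factors. Leptin binds Lepr, a cytokine receptor that works through JAK2 and STAT3 and is held in check by Socs3. In brain capillaries Insr and Lepr are also known for binding circulating insulin and leptin at the blood-brain barrier, while Igf2r carries IGF2 and mannose 6-phosphate proteins to lysosomes, Grb10 binds activated Insr and Igf1r and dampens them, and Igfbp7 is secreted into the vessel wall.

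Library totals ran from 1626534 to 49372356 counts (median 5790701), and WSB/EiJ had the shallowest set of libraries (1626534 to 5331064). The summed level of 18 endothelial markers lay between 18675 and 40036 CPM in every library, with Cldn5 (322 to 2503 CPM), Pecam1 (446 to 1100 CPM) and Cdh5 (385 to 1332 CPM) detected throughout. The 10 microglial markers summed to 0 to 115 CPM and the 10 smooth muscle markers to 297 to 909 CPM. Sums were larger for the 10 pericyte markers (2160 to 9759 CPM) and the 10 astrocyte markers (1126 to 19888 CPM). The study describes its sorted cells as enriched for EC but not pure. Reads on rRNA-like genes made up 1.59% to 12.1% of the counts in female libraries and 12.97% to 29.3% in male libraries, and the median total was 21242058 in female and 5257353 in male libraries. Sex therefore cannot be told apart from these differences between libraries. No pair of libraries held identical counts. In bulk RNA, fewer cells of a type and less RNA per cell cannot be told apart.

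Compared per length, as mean CPM per kilobase of exon, Igfbp7 stood highest (345), followed by Igf1r (74.6) and Insr (18.1). Grb10 (9.57), Igf2r (7.11), Socs3 (5.42) and Lepr (4.47) formed a middle range, and Irs2 (2.22) and Irs1 (1.35) were lowest. The IGF-1 receptor was thus the most abundant of the 4 receptors on this scale, and its level per kilobase was 4.58 ± 1.61 times that of the insulin receptor (SD, n = 43). That ratio was lowest in WSB/EiJ (3.16 ± 0.83, SD, n = 6) and highest in 129S1/SvImJ (5.78 ± 1.77, SD, n = 9). The count of Igfbp7 may be affected, in a direction not known here, by Polr2b (60.8 CPM), a gene on the other strand whose exons overlap it. Exons of Irs1 and Irs2 also overlap those of genes on the other strand, Gm9747 and 9530052E02Rik, and the effect on their counts was not tested. The kit is stranded, but the use of strand in counting is not stated. Igf2r overlaps the antisense RNA Airn (2.93 CPM), although their exons do not overlap.

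Insr (mm10, chromosome 8, 3122061 to 3279617, minus strand) encodes the insulin receptor. Its TMM-scaled level in the 6 WSB/EiJ libraries was 632 CPM in female hippocampus, 387 CPM in female cortex, 381 and 394 CPM in male cortex, and 450 and 452 CPM in male hippocampus. In the 37 libraries of the other strains it ran from 105 to 352 CPM. Every WSB/EiJ library therefore lay above every other library, which was so for 0.024% of all 29120 genes tested. The mean was 449 ± 94.7 CPM in WSB/EiJ (SD, n = 6) against 216 ± 55.9 CPM elsewhere (SD, n = 37), a 2.08-fold difference. Without the female hippocampus library at 632 CPM, which stood apart, the WSB/EiJ mean was 413 ± 35.3 CPM (SD, n = 5).

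The higher Insr level of WSB/EiJ was present in both regions and both sexes. In cortex it was 387 ± 6.68 CPM (SD, n = 3) against 201 ± 61.9 CPM (SD, n = 18), and in hippocampus 511 ± 104 CPM (SD, n = 3) against 230 ± 46.8 CPM (SD, n = 19). The fold was 2.48 in female and 1.89 in male libraries. The other 6 strains ran from 168 ± 42.0 CPM in 129S1/SvImJ (SD, n = 9) to 235 ± 30.7 CPM in C57BL/6J (SD, n = 6), and none of these neighbours in the order differed by more than the larger of their SDs. The ends of that range did differ by more than either SD. CAST/EiJ, the other wild-derived strain, stood at 234 ± 44.4 CPM (SD, n = 6), within the range of the long-inbred strains. The 1.61-fold difference between wild-derived and long-inbred origin (342 against 213 CPM) was thus 2.11-fold for WSB/EiJ and 1.10-fold for CAST/EiJ.

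Scaling and cell markers moved with this result in part. With DESeq2's size factors in place of TMM, 4 of the 6 WSB/EiJ libraries, not 6, lay above the highest other library (378 CPM, in DBA/2J), and the fold was 2.04. The 10 pericyte markers summed to 5242 to 9759 CPM in WSB/EiJ (median 9037) and to 2160 to 8751 CPM elsewhere (median 4035), and 8 of the 10 had their highest strain mean in WSB/EiJ. Pericyte markers were thus highest in the strain where Insr was highest, and their part in its level was not tested. The endothelial sum of WSB/EiJ (20403 to 31642 CPM) lay inside that of the other strains, but its single markers went both ways. WSB/EiJ had the lowest strain mean of Cldn5 (676 CPM), Itm2a (590 CPM), Tek (602 CPM) and Tie1 (273 CPM). It had the highest of Flt1 (6127 CPM), Slc7a5 (1979 CPM) and Slc2a1 (1995 CPM), so the sum does not show matched endothelial content. Insr per 1000 CPM of endothelial markers was 17.8 ± 3.32 in WSB/EiJ (SD, n = 6) against 8.27 ± 2.20 elsewhere (SD, n = 37), with 5 of 6 libraries above all others.

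Lepr (mm10, chromosome 4, 101717404 to 101815352, plus strand) encodes the leptin receptor. CAST/EiJ held 88.7 CPM in female cortex, 103 CPM in female hippocampus, 109 and 73.6 CPM in male cortex, and 93.0 and 112 CPM in male hippocampus. The other 37 libraries ran from 1.73 to 53.7 CPM, so that no CAST/EiJ library overlapped any of them, as for 0.216% of all genes tested. The means were 96.6 ± 14.5 CPM (SD, n = 6) and 20.98 ± 13.96 CPM (SD, n = 37), which is 4.60-fold. With DESeq2's size factors, all 6 CAST/EiJ libraries still exceeded the highest other library (57.03 CPM, in A/J), and the fold was 4.38.

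The promoter of Lepr is shown because this gene differed most between strains, and that of Igf1r because it is the receptor with the highest level. Both are reference sequence of RefSeq (GRCm38.p6), which is based on C57BL/6J, printed 5′ to 3′ on the gene's strand. The Lepr window ends just before the gene start given above, and the Igf1r window just before the start that RefSeq annotates, which lies upstream of the gene start given for Igf1r. They are chr4:101717157-101717403 (plus strand) and chr7:67952007-67952256 (plus strand), and capitals mark the GC box GGGCGG.
Lepr: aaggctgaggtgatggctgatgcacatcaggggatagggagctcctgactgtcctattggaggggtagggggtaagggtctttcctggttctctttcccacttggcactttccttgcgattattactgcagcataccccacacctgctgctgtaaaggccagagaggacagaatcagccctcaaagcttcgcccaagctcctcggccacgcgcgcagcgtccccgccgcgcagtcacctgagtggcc
Igf1r: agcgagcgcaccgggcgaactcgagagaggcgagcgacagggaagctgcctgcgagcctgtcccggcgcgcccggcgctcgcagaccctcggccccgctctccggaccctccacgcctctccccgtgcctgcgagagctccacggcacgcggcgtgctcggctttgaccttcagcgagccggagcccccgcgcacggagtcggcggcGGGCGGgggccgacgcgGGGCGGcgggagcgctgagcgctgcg
A search of both strands for the GC box GGGCGG, the E box CACGTG, the FOXO core GTAAACA and the STAT site TTCNNNGAA found none of the 4 in this Lepr window and 2 GC boxes in that of Igf1r, while a second Lepr window, at another RefSeq start further downstream, held 1 GC box. Over 32851 promoter windows of 250 bases, 32.7% held a GC box, 6.02% an E box, 3.17% a FOXO core and 7.02% a STAT site, and none of these motifs overlaps another in its letters. Promoters were matched for 8 of the 9 genes (all but Insr), in 10 windows. Among the others, Grb10 had 5 GC boxes in one window, Igfbp7 4, Igf2r 3 with 2 E boxes, and Socs3 was the gene with a STAT site.

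**Figure D1:**
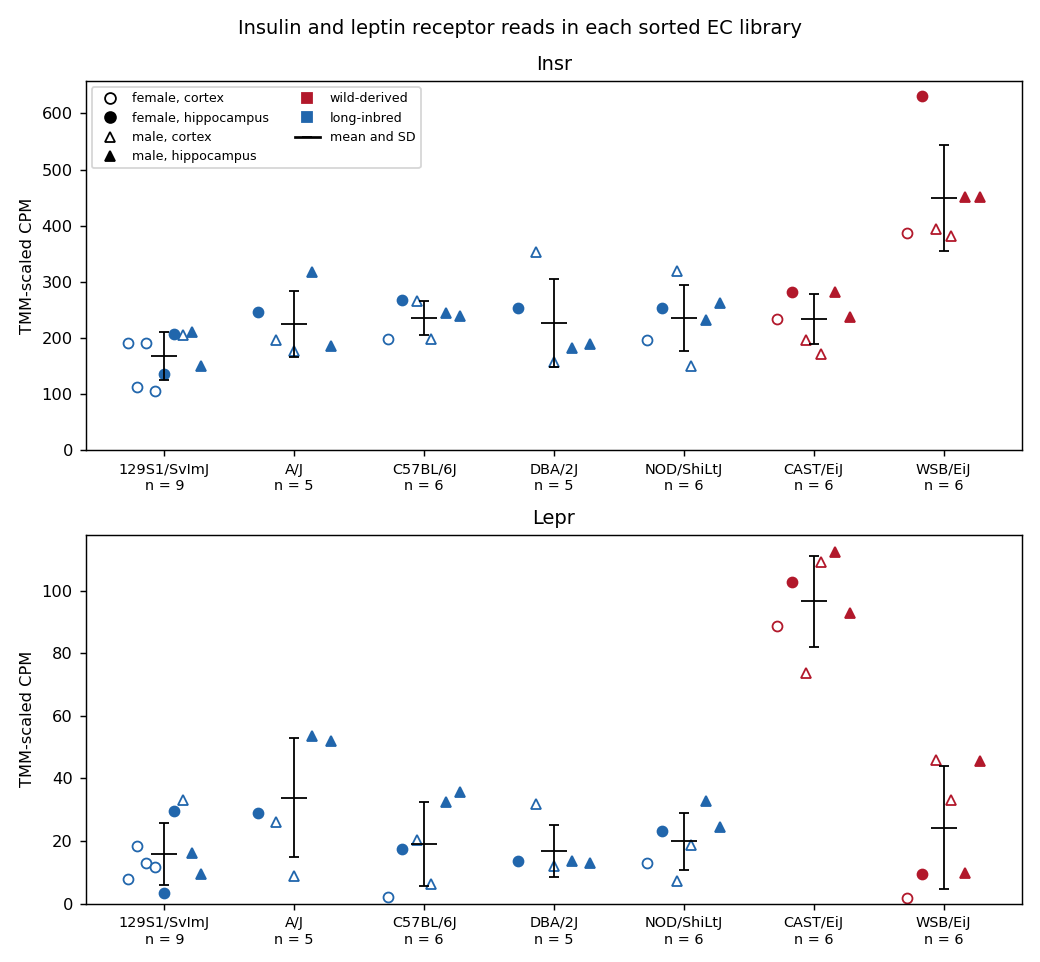
TMM-scaled CPM of Insr and Lepr (y axes, linear) in each of the 43 libraries by strain (x axis), with circles for female and triangles for male mice, filled for hippocampus and open for cortex, red for wild-derived and blue for long-inbred strains, and bars for the mean and SD. WSB/EiJ stands above all other libraries for Insr (381 to 632 CPM), and CAST/EiJ does for Lepr (73.6 to 112 CPM).

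Lepr was high in CAST/EiJ in cortex (90.5 ± 17.9 CPM, SD, n = 3, 5.23-fold over the other strains) and in hippocampus (103 ± 9.66 CPM, SD, n = 3, 4.199-fold). It was also high in female (6.95-fold) and in male libraries (3.83-fold), and in those titled high (4.67-fold) and low (4.47-fold). The next strain in the order was A/J at 33.9 ± 19.0 CPM, whose 5 libraries held 28.8, 52.0, 8.75, 53.7 and 26.0 CPM. The lowest was 129S1/SvImJ at 15.9 ± 9.90 CPM (SD, n = 9), and from A/J downward no neighbours differed beyond their spread. WSB/EiJ stood at 24.3 ± 19.7 CPM (SD, n = 6), from 1.73 CPM in a library with 4 counts to 45.9 CPM. The difference between origins (60.4 against 20.3 CPM, 2.97-fold) was accordingly 4.75-fold for CAST/EiJ and 1.19-fold for WSB/EiJ, and on the log2(CPM + 1) scale WSB/EiJ differed from the long-inbred mean by -0.06.

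The pericyte sum was lowest in CAST/EiJ, the strain with the highest Lepr (2160 to 3108 CPM), and its endothelial sum (20431 to 33784 CPM) lay within that of the other strains. Among the endothelial markers, CAST/EiJ had the highest strain mean of Cldn5, Emcn, Ocln, Pecam1, Tek and Tie1 and the lowest of Flt1. That low pericyte sum rested mainly on Rgs5, with a mean of 1403 CPM against strain means of 3139 to 5656 CPM elsewhere. Vtn (185 CPM) also had its lowest strain mean in CAST/EiJ, and the other pericyte markers did not. Atp13a5, for example, was 187 CPM there and 137 CPM in 129S1/SvImJ. The 8 choroid plexus markers summed to 142 to 251 CPM in CAST/EiJ, with the highest median of the strains (192 CPM, against 53.9 to 118 CPM). Of the 8, Enpp2 (197 CPM) had its highest strain mean there, and the defining marker Ttr had a mean of 1.52 CPM in CAST/EiJ and 73.3 CPM in NOD/ShiLtJ. The part of these markers in the Lepr level was not tested. Per 1000 CPM of endothelial markers, Lepr was 3.60 ± 1.06 in CAST/EiJ (SD, n = 6) and 0.837 ± 0.595 elsewhere (SD, n = 37), with 4 of 6 libraries above all others. Reads of every strain were aligned to mm10, which is based on C57BL/6J, and the effect of that on the counts was not tested.

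Igf1r (mm10, chromosome 7, 67952827 to 68233668, plus strand), the IGF-1 receptor, was also highest in WSB/EiJ, but with overlap. The WSB/EiJ libraries held 1806 and 1413 CPM in female hippocampus and cortex, 1888 and 2028 CPM in male cortex, and 1690 and 1255 CPM in male hippocampus. The other strains ran from 511 to 1515 CPM, so 4 of the 6 lay above them. The mean was 1680 ± 294 CPM (SD, n = 6) against 1184 ± 216 CPM (SD, n = 37), 1.42-fold. The other 6 strains spanned 1093 ± 132 CPM in CAST/EiJ (SD, n = 6) to 1270 ± 128 CPM in NOD/ShiLtJ (SD, n = 6), and none of these neighbours differed beyond its spread. The ends of that range differed by more than either SD. DBA/2J varied most, with 511 CPM in its female hippocampus library and 1178 to 1469 CPM in its 4 male libraries.

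The other 6 genes showed no neighbouring strains that differed beyond their spread. Sorting puts similar means side by side, so this does not show that strains further apart in the order were alike. For Igf2r, C57BL/6J (75.6 ± 23.1 CPM, SD, n = 6) and 129S1/SvImJ differed by more than either SD. Igf2r (chromosome 17, 12682406 to 12769664, minus strand), the receptor that clears IGF2, ran from 50.1 ± 15.6 CPM in 129S1/SvImJ (SD, n = 9) to 82.5 ± 41.1 CPM in WSB/EiJ (SD, n = 6), where 1 female cortex library reached 160 CPM. Grb10 (chromosome 11, 11930508 to 12038683, minus strand), an imprinted adaptor that restrains Insr and Igf1r, ran from 74.2 ± 20.3 CPM in A/J (SD, n = 5) to 116 ± 44.0 CPM in WSB/EiJ (SD, n = 6). WSB/EiJ thus had the highest mean of Insr, Igf1r, Igf2r and Grb10, although the latter pair was within the spread of the next strain.

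The substrates were the lowest of the 9 genes per length, with the limit that exons of both overlap genes on the other strand. Irs1 (chromosome 1, 82233101 to 82291416, minus strand) had a mean of 8.26 ± 5.16 CPM in CAST/EiJ (SD, n = 6) and 15.8 ± 9.95 CPM in 129S1/SvImJ (SD, n = 9), and 4 of the 43 libraries had 0 counts and 5 at most 3. Irs2 (chromosome 8, 10984681 to 11008458, minus strand) ran from 10.2 ± 6.32 CPM in A/J (SD, n = 5) to 19.6 ± 13.1 CPM in 129S1/SvImJ, with 0 counts in 2 libraries and at most 3 in 3. In both genes the spread within a strain was about as large as the range of the strain means.

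Socs3 (chromosome 11, 117966079 to 117970047, minus strand), the cytokine-induced inhibitor of leptin receptor signals, varied widely within DBA/2J and 129S1/SvImJ. Its strain means ran from 5.92 ± 6.26 CPM in WSB/EiJ (SD, n = 6) to 24.96 ± 40.7 CPM in DBA/2J (SD, n = 5). The DBA/2J mean rested on the female hippocampus library (97.5 CPM), beside 8.92, 5.25, 10.2 and 2.93 CPM in the others, and in 129S1/SvImJ 1 female cortex library held 52.1 CPM while the other 8 held 0 to 9.51 CPM. Without those libraries the means were 6.82 ± 3.33 CPM in DBA/2J and 3.76 ± 3.57 CPM in 129S1/SvImJ (SD). With all libraries, the strain means of log2(CPM + 1) ran from 2.25 ± 1.78 in 129S1/SvImJ to 4.55 ± 0.67 in A/J (SD). In CAST/EiJ, where Lepr was highest, Socs3 ran from 7.98 to 33.9 CPM, with a mean of 23.3 ± 8.75 CPM (SD, n = 6), in the range of A/J (24.6 ± 11.9 CPM, SD, n = 5). Igfbp7 (chromosome 5, 77349240 to 77408041, minus strand) ran from 361 ± 140 CPM in 129S1/SvImJ (SD, n = 9) to 507 ± 155 CPM in A/J (SD, n = 5), and the WSB/EiJ mean of 395 ± 350 CPM (SD, n = 6) held 1 female cortex library at 1106 CPM and 5 at 214 to 287 CPM.

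**Figure D2:**
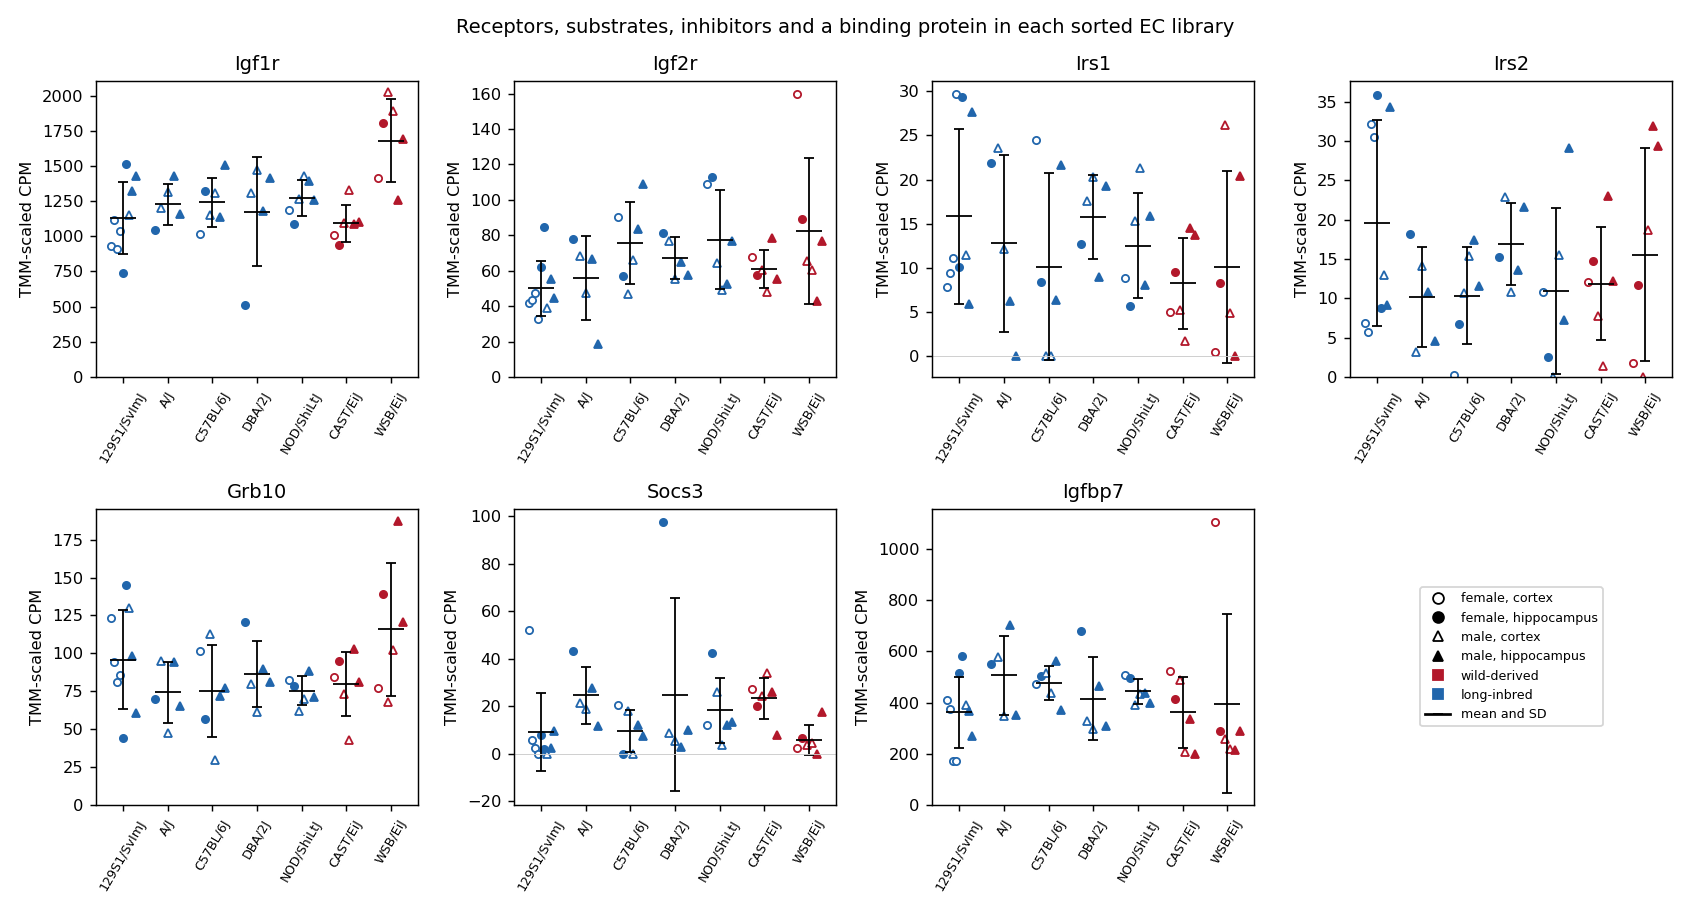
TMM-scaled CPM (y axes, linear) of Igf1r, Igf2r, Irs1, Irs2, Grb10, Socs3 and Igfbp7 in each of the 43 libraries by strain (x axis), with circles for female and triangles for male mice, filled for hippocampus and open for cortex, red for wild-derived and blue for long-inbred strains, and bars for the mean and SD, which can reach below 0. Igf1r is highest in WSB/EiJ with overlap, and Socs3 and Igfbp7 each have strains in which 1 library stands far from the rest.

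Across the 43 libraries the genes moved together only loosely. The highest Pearson correlations of log2(CPM + 1) among the 36 pairs of the 9 genes were 0.50 for Igf2r with Igfbp7 and 0.43 for Insr with Igf2r, the lowest was -0.34 for Igf1r with Socs3, and Insr and Lepr stood at 0.13. Among 8674 genes with a mean of at least 10 CPM, the patterns most like that of Insr were those of Notch1 (0.77) and Mtus1 (0.77), followed by Gm5940 (0.72), Sema7a (0.71) and Cdc42ep4 (0.69). Those most like Lepr were Abcb4 (0.74), a phospholipid exporter that the study named for the same contrast, then Eef1a1 (0.67), Gm8399 (0.67), Kctd12 (0.67) and Cmtm6 (0.66). The libraries share strains and depths, so these correlations are descriptions.

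Between the sexes, which played no part in choosing the genes, none of the 9 passed edgeR's quasi-likelihood test after Benjamini-Hochberg adjustment, where 2.85% of all genes did. At an unadjusted p under 0.05 there were 2, and DESeq2 called 1. Igf1r ran from 511 to 1806 CPM in female libraries (median 1044) and from 1085 to 2028 CPM in male libraries (median 1310), and its fitted log2 difference, female minus male, was -0.29 (standard error 0.10, edgeR adjusted p = 0.121). The groups overlapped, and the direction was the same in all 20 alternative analyses, from -0.43 to -0.23, of which 6 passed the threshold. One of those was DESeq2, with -0.43 and an adjusted p of 0.000607. Igfbp7 had a median of 500 CPM in female libraries (171 to 1106) and 365 CPM in male libraries (200 to 703), a log2 difference of 0.37 (standard error 0.15, edgeR adjusted p = 0.236).

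For the other 7 genes the adjusted p between sexes was higher still. Lepr differed by -0.58 (standard error 0.36, edgeR adjusted p = 0.482), Socs3 by 0.80 (standard error 0.49), Igf2r by 0.33 (standard error 0.18) and Insr by -0.05 (standard error 0.16), all on the log2 scale. The median difference of the 9 genes was 0.06, with 5 of 9 higher in female mice, against -0.12 over all genes. With DESeq2's size factors the median over all genes was -0.24, and the genes called were 430 higher and 155 lower in female libraries in place of 745 and 85. The endothelial sum also differed, with a median of 31333 CPM in female and 23472 CPM in male libraries, and its part in these values was not tested.

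Between regions, none of the 9 genes passed the test in edgeR, none had an unadjusted p under 0.05 and DESeq2 called none, where edgeR called 0.0755% of all genes. Irs2 had the largest fitted difference, with 2.49 to 35.9 CPM in hippocampus (median 14.2) and 0 to 32.2 CPM in cortex (median 10.8), a log2 value of 0.59 for hippocampus minus cortex (standard error 0.41, edgeR adjusted p = 0.669). Lepr stood at 0.34 (standard error 0.35) and Insr at 0.24 (standard error 0.16). The point estimate was above 0 for 8 of the 9 genes, with a median of 0.19 against 0.03 over all genes. Marker sums differed by region too. The endothelial median was 29202 CPM in hippocampus and 23806 CPM in cortex, and the astrocyte median 2914 and 4300 CPM. Their part in these values was not tested.

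Between male libraries titled high (14) and low (13), none of the 9 genes passed in edgeR or DESeq2, where edgeR called 1.06% of 27529 genes, and 2 had an unadjusted p under 0.05. Igfbp7 held 214 to 703 CPM (median 414) in libraries titled high and 200 to 438 CPM (median 307) in those titled low, a log2 difference of 0.45 (standard error 0.15, edgeR adjusted p = 0.173). Grb10 held 62.1 to 188 CPM (median 91.8) and 29.2 to 121 CPM (median 69.6), a difference of 0.48 (standard error 0.20, edgeR adjusted p = 0.415). The receptors differed less, by 0.29 for Insr (standard error 0.16), -0.12 for Igf1r (standard error 0.10), 0.09 for Igf2r (standard error 0.21) and 0.04 for Lepr (standard error 0.36).

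**Figure D3:**
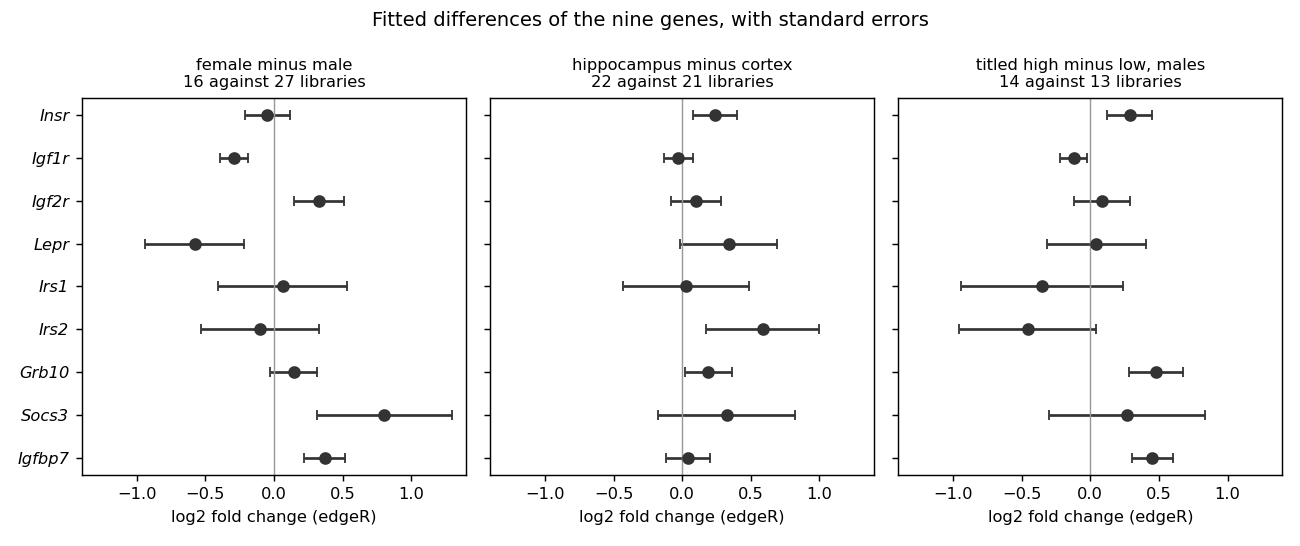
Fitted log2 fold change (x axis) with its standard error for each of the 9 genes (y axis) between the sexes (female minus male), the regions (hippocampus minus cortex) and the title words in male mice (high minus low). No gene passed the edgeR test in any of the 3 comparisons, and the intervals are widest for Irs1, Irs2, Socs3 and Lepr.

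Whether the difference between origins itself differed by region or sex was tested as an interaction, and none of the 9 genes passed in edgeR or DESeq2 for either, where edgeR called 0.0% and 0.0206% of all genes. In each of these tests 1 gene, Igfbp7, had an unadjusted p under 0.05. Its interaction of origin with sex was 0.96 on the log2 scale (standard error 0.32, edgeR adjusted p = 0.908) and that with region -0.97 (standard error 0.33). Without the WSB/EiJ female cortex library at 1106 CPM these became 0.46 and -0.52, and neither had an unadjusted p under 0.05. For Lepr the interaction with region was -0.61 (standard error 0.69) and for Insr 0.25 (standard error 0.31), so the data do not resolve whether the strain differences of these receptors vary by region.

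Of 77 other genes of these pathways, listed by role, 76 were measured and Igfbp1 had 0 counts in all libraries. Of their ligands, those of Insr and Lepr were nearly absent from the sorted cells. Ins1, Ins2 and Lep, which encode insulin and leptin, had 0 counts in 42 of 43 libraries each, Igf1 in 25, and Igf2 averaged 11.99 ± 13.1 CPM (SD, n = 43) with 0 counts in 5. Jak2 (105 ± 30.8 CPM), the kinase that carries the leptin signal, and the factor Stat3 (119 ± 41.1 CPM) were present in every library, as was the related kinase Jak1 (143 ± 51.6 CPM). So were the insulin effectors Akt1 (161 ± 50.5 CPM) and Nos3 (357 ± 122 CPM), the endothelial nitric oxide synthase.

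Jak1, a kinase of cytokine receptors, was the gene of this list that differed between origins, 1 of 76, where 0.749% of all genes were called. It ran from 120 to 321 CPM in wild-derived (median 192) and from 54.2 to 194 CPM in long-inbred libraries (median 125.3), and the fitted log2 difference was 0.70 (standard error 0.15, edgeR adjusted p = 0.00619), while the median over all genes was -0.38. Both wild-derived strains had the highest means, CAST/EiJ at 204 ± 26.0 CPM (SD, n = 6) and WSB/EiJ at 190 ± 73.1 CPM (SD, n = 6), and the next was NOD/ShiLtJ at 159 ± 26.8 CPM (SD, n = 6). The WSB/EiJ mean was raised by its female cortex library at 321 CPM, and its median was 173 CPM. Of the 6 libraries of each strain, 4 of CAST/EiJ and 2 of WSB/EiJ lay above every long-inbred library. Without CAST/EiJ the adjusted p was 0.140, and with counts summed to 1 value per strain, 2 strains against 5, it was 0.833 at a log2 difference of 0.60. A cause common to wild-derived origin therefore cannot be told apart from the 2 strains sampled.

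Among the 7 strains, 5 of the 76 genes passed (2.68% of all genes did): Igfbp3, Jak1, Pik3r2, Foxo3 and Socs2. Foxo3, a transcription factor restrained by AKT, was highest in WSB/EiJ at 165 ± 63.3 CPM (SD, n = 6), against strain means of 72.4 to 96.6 CPM elsewhere (edgeR adjusted p = 0.0404). Pik3r2, a regulatory subunit of PI3-kinase, was also highest there at 86.7 ± 63.3 CPM, against 23.8 to 48.5 CPM (edgeR adjusted p = 0.0253). That mean was raised by the female cortex library at 202 CPM. The WSB/EiJ median was 69.2 CPM, and 2 of the 6 libraries lay above every long-inbred library. Socs2, an inhibitor of cytokine and growth hormone signals, was lowest in WSB/EiJ at 9.22 ± 9.36 CPM and highest in C57BL/6J at 43.2 ± 20.2 CPM (SD, n = 6, edgeR adjusted p = 0.0450). WSB/EiJ is also the strain with the highest pericyte sum (median 9037 against 4035 CPM) and the shallowest libraries, and the part of these in the values of Foxo3, Pik3r2 and Socs2 was not tested. Igfbp3 rested on 2 female hippocampus libraries, DBA/2J at 527 CPM and NOD/ShiLtJ at 237 CPM, without which its adjusted p went from 0.000914 to 0.348 and that of Foxo3 to 0.0779. Leaving out the A/J female hippocampus library left 3 calls, and leaving out that of DBA/2J left 2, with Jak1 and Pik3r2 called both times.

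Between the sexes 4 of the 76 genes passed, beside 2.85% of all genes. Grb14, an inhibitory adaptor of Insr related to Grb10, was higher in female mice (78.2 to 289 CPM, median 188) than in male mice (74.5 to 237 CPM, median 141), by 0.53 on the log2 scale (standard error 0.15, edgeR adjusted p = 0.0264), and so was Map2k2, a MAP kinase kinase, by 0.76 (standard error 0.23, edgeR adjusted p = 0.0413). Jak2, the kinase bound to Lepr, fell by 0.52 in female mice, from a median of 111 CPM in male to 85.9 CPM in female libraries (standard error 0.15, edgeR adjusted p = 0.0440). Ide, the insulin-degrading enzyme, differed by -0.82 (standard error 0.24, edgeR adjusted p = 0.0424). The strain mean of Grb14 was highest in 129S1/SvImJ (203 ± 45.0 CPM, SD, n = 9), where most libraries were female. CAST/EiJ came next (199 ± 49.7 CPM, SD, n = 6). With the 2 sexes scaled by DESeq2's size factors 3 of the 76 passed, all lower in female mice, and Grb14 and Map2k2 did not. No gene of the list passed in edgeR once A/J, C57BL/6J or NOD/ShiLtJ was left out, with 12 to 14 at an unadjusted p under 0.05.

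Between regions 1 of the 76 genes passed, beside 0.0755% of all genes. Igfbp3 ran from 0.0911 to 527 CPM in hippocampus (median 7.95) and from 0 to 26.8 CPM in cortex (median 4.32), a log2 difference of 3.03 (standard error 0.67, edgeR adjusted p = 0.0324). Without the same 2 female hippocampus libraries it was 1.5 with an adjusted p of 0.686, and no gene of the list passed in edgeR.

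Between title words 6 of the 76 genes passed in male mice, beside 1.06% of all genes, and 4 of them are described here. Foxo1, the FOXO factor that insulin signals keep out of the nucleus, held 112 to 208 CPM (median 166) in libraries titled high and 67.3 to 138 CPM (median 100) in those titled low, a log2 difference of 0.71 (standard error 0.15, edgeR adjusted p = 0.00482). Slc2a1, the glucose transporter of the blood-brain barrier and also one of the endothelial markers, was higher by 0.50 (1180 to 2470 against 1081 to 2219 CPM, edgeR adjusted p = 0.00551). Ptpn11 and Pik3r1 were lower in libraries titled high. Ptpn11, a phosphatase that relays growth factor signals, held 94.5 to 308 CPM (median 218) against 255 to 427 CPM (median 341) and fell by 0.65 on the log2 scale (edgeR adjusted p = 0.00508). Pik3r1, the main regulatory subunit of PI3-kinase, held 58.8 to 179 CPM (median 107) against 114 to 261 CPM (median 166) and fell by 0.70 (edgeR adjusted p = 0.0188).

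Markers moved with the title words too. The endothelial sum had a median of 29163 CPM in male libraries titled high (20403 to 30887) and 21512 CPM in those titled low (18829 to 25559). The pericyte sum was 3906 CPM (2330 to 9013) against 6863 CPM (2799 to 9759), the astrocyte sum 3272 CPM (1498 to 7346) against 5321 CPM (3210 to 19888), and the neuronal sum 435 CPM (300.2 to 1042) against 903 CPM (616 to 1519). Their part in the 6 calls was not tested. Within cortex or hippocampus alone none of the 6 genes kept its call in edgeR, where 9 and 8 of the 76 had an unadjusted p under 0.05.

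**Figure D4:**
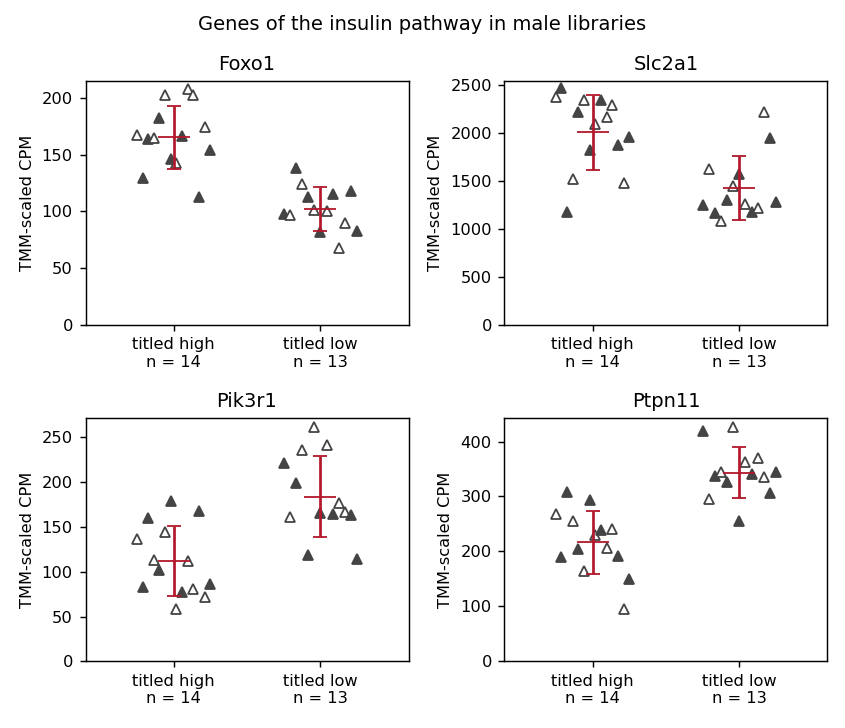
TMM-scaled CPM (y axes, linear) of Foxo1, Slc2a1, Pik3r1 and Ptpn11 in the 27 male libraries titled high or low (x axis), filled for hippocampus and open for cortex, with bars for the mean and SD. Foxo1 and Slc2a1 are higher and Pik3r1 and Ptpn11 lower in libraries titled high, and the ranges of the 2 groups overlap in each gene.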

How the data were processed

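Brain endothelial cells sorted by FACS were profiled by RNA sequencing. Per the paper and the submitters' notes, the authors used HISAT2 2.1.0 for alignment to mm10 and featureCounts (Subread 1.4.4) for the deposited counts per gene, which are not normalized. SAMtools 1.9 is also named there. Whether counting used strand is not given in the sources used here.

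The filter kept genes at 0.5 CPM or more in 1 or more libraries. Counts were scaled with TMM and tested with edgeR 4.0.16 (R 4.3.3, quasi-likelihood F test, trended dispersion), with Benjamini-Hochberg adjustment over all genes kept and a threshold of 0.05. A standard error is the size of the log2 fold change divided by the square root of F. DESeq2 1.42.0 was an alternative, and levels were summarised in Python 3.11.15 as CPM or log2(CPM + 1). The test was checked on simulated counts, where false calls exceeded the nominal share, so the adjusted p-values, above all those near the threshold, may understate the share of false calls. The adjusted deviances of edgeR failed in designs with covariates, which were fitted with legacy deviances. A count of 0 allows up to 3 counts, for counting error only.

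Libraries were grouped by the labels. The 9 genes and the gene lists were chosen with earlier results of these data known. All 9 are described, and from the list of pathway genes those with an adjusted p of at most 0.05 in a comparison, at most 8 (some of these are not reported here). Levels by origin and strain were not tested for the 9. For Insr and Lepr, the 5 genes with a mean of at least 10 CPM and the highest Pearson correlation are named. The alternatives were other scaling, filters, covariates, subsets and left-out strains or libraries. PWK/PhJ was not analysed here.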

Additional observations from a re-analysis of the deposited data

Results flagged for a closer look

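Within each strain the highest and lowest library was compared with the rest by the gap to its neighbour (Dixon's 95% critical value) for the 9 genes and 5 pathway genes that differed between strains. Of the 98 groups checked, 7 had a library that stood apart. The nominal rate of 5% of groups holds for normal values and for genes chosen without these data. CPM values were used here, and the 5 pathway genes were chosen from these libraries, so the count cannot be compared with that rate. In 6 of the 7 it came from a female mouse, where 16 of the 43 libraries were female. In most strains the female libraries were the minority, and they differed from male ones in depth and rRNA-like share, so this count is not a result about sex.

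Insr stood at 632 CPM in the WSB/EiJ female hippocampus library and at 381 to 452 CPM in the other 5. Igfbp7 was 1106 CPM in the WSB/EiJ female cortex library, against 214 to 287 CPM in the others. Socs3 was 97.5 CPM in the DBA/2J female hippocampus library (others 2.93 to 10.2 CPM) and 52.1 CPM in 1 of the 129S1/SvImJ female cortex libraries (others 0 to 9.51 CPM). Igfbp3 reached 527 CPM in that same DBA/2J library (others 0 to 82.6 CPM) and 237 CPM in the NOD/ShiLtJ female hippocampus library (others 0 to 8.43 CPM). Lepr was 31.8 CPM in the DBA/2J male cortex library titled high, while the other 4 held 12.2 to 13.8 CPM. Why these libraries stood apart was not tested.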

How the results depend on the processing

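No paired analysis was possible because no label ties a library to its mouse, and replicate numbers are in accession order. The block of strain, sex and title word used between regions matches libraries by their labels only. Covariate designs were fitted with legacy deviances alone, since the planned fits failed, and these deviances without a covariate called 10473 genes between sexes against 830 otherwise. Covariates with legacy deviances, leaving out A/J or DBA/2J libraries in turn or the libraries with the highest Igfbp7 or Igfbp3, division by endothelial markers, and every alternative for pathway genes between sexes, regions and title words were chosen after seeing the data. Irs1, Irs2 and Socs3 had at most 3 counts in 5, 3 and 5 libraries.

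Of 540 values of the 9 genes under alternatives of the tested comparisons, 495 kept their direction and 45 did not, none of the latter past the threshold. Of 126 values of the difference between origins, which was not tested, 114 kept their direction, and those of Socs3 ran from -0.95 to 1.25 and those of Lepr from -0.06 to 2.46. The 9 genes had no call between sexes, against 1 with DESeq2's size factors, DESeq2's test, no filter or thinned counts, and 2 with legacy deviances or strain as covariate. Between title words legacy deviances and strain with region as covariates each gave 1. Of the 2 genes without overlap between strains, DESeq2's size factors left 1 (Lepr), as did leaving out CAST/EiJ (Insr) or WSB/EiJ (Lepr), and division by endothelial markers left neither (5 and 4 of 6 libraries above all others).

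Of the 76 pathway genes, the 4 calls between sexes became 9 with DESeq2's test, 12 with legacy deviances, 2 with no filter, 1 without 129S1/SvImJ, without DBA/2J, in hippocampus or with strain as covariate, and 0 without A/J, C57BL/6J or NOD/ShiLtJ, in cortex or among libraries titled high. The 1 call between regions became 8 with legacy deviances, and 0 without 129S1/SvImJ, CAST/EiJ, DBA/2J, NOD/ShiLtJ or the 2 libraries with the highest Igfbp3, and in each sex alone. The 6 between title words became 15 with legacy deviances, 3 without 129S1/SvImJ or A/J, 2 without C57BL/6J or CAST/EiJ, and 0 within a region. The 1 between origins became 8 with legacy deviances, 3 with DESeq2's test or with sex and region as covariates, 2 with at least 1 CPM in 5 libraries, without 129S1/SvImJ or without CAST/EiJ, and 0 in male mice, within a region or with counts summed per strain. The 5 among strains became 20 with legacy deviances, 3 with DESeq2's size factors or without the 2 libraries with the highest Igfbp3, and 2 to 6 with an A/J or DBA/2J library left out. Of 212 values of the named pathway genes, none changed direction and 91 lost the threshold.

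Reversals between sexes were 0.19 without 129S1/SvImJ, 0.034 with strain and 0.30 with rRNA-like share as covariate and 0.13 in hippocampus for Insr, and 0.83 with that share for Lepr. For Irs1 they were -0.032 with DESeq2's size factors or test, -0.16, -0.054 and -0.10 without 129S1/SvImJ, A/J and C57BL/6J, -0.05 and -0.067 with strain and rRNA-like share, -0.006 in cortex and -0.01 with thinned counts. For Irs2 they were 0.035 and 0.088 without C57BL/6J and WSB/EiJ, 0.40 with rRNA-like share and 0.30 in cortex, and for Grb10 -0.083 among libraries titled high. Between regions Igf1r was 0.021 without DBA/2J, 0.012 without WSB/EiJ, 0.002 with strain, sex and title word as a block, 0.06 in female mice and 0.022 without the 2 libraries with the highest Igfbp3, and Igf2r was -0.019 without 129S1/SvImJ. Irs1 was -0.018 with DESeq2's size factors or test, -0.06, -0.044 and -0.125 without 129S1/SvImJ, C57BL/6J and CAST/EiJ, and -0.033 in male mice. Socs3 was -0.017 without DBA/2J, -0.157 with the block, -0.164 in male mice and -0.186 without the 2 libraries, and Igfbp7 was -0.078 without 129S1/SvImJ, -0.013 without DBA/2J and -0.003 without the 2 libraries. Between title words Igf2r was -0.066 and Lepr -0.025 without A/J, Lepr -0.005 and -0.043 without C57BL/6J and DBA/2J, Irs1 0.495 in cortex and Socs3 -0.044 with strain and region as covariates. The interaction of origin with sex of Igf2r was -0.0004 without the library with the highest Igfbp7. The cause of these changes was not tested.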

Other observations

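The genes next to Lepr and Insr were read in the strains in which these receptors were high. Jak1, which starts 452 kilobases from Lepr on the same chromosome, was 204 ± 26.0 CPM in CAST/EiJ (SD, n = 6) and 133 ± 47.7 CPM in the other strains (SD, n = 37), 1.54-fold, with none of the 6 libraries above all others. Ak4, an adenylate kinase of mitochondria, was 29.2 ± 8.17 CPM in CAST/EiJ against 14.3 ± 12.8 CPM, 2.05-fold. Leprot, 58.0 kilobases before Lepr, encodes a protein that limits the receptor at the cell surface and was 57.8 ± 9.44 CPM against 45.6 ± 20.5 CPM, 1.27-fold. Dnajc6 (0.84-fold) and Pde4b (0.99-fold) were close to the level of the other strains. Beside Insr, Arhgef18 was 107 ± 72.2 CPM in WSB/EiJ (SD, n = 6) against 68.2 ± 22.6 CPM (SD, n = 37), 1.57-fold. None of these neighbours had the separation between strains seen for Lepr and Insr, and the strain values were not tested.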
